A study of Danio rerio with 48 samples.

Results

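Radial glia and astroglia genes were followed through the brains of 3 generations of zebrafish. The genes were those listed as gfap, fabp7a, fabp7b, s100b, her4.1, her6, slc1a2b, slc1a3b, glula and glulb, and 9 of these 10 names matched 11 Ensembl gene IDs of the 32520 in the count files. Symbols came from a name table that spells many zebrafish genes as their human counterparts and drops a final a or b, so every ID of such a symbol was taken and the members are GFAP, 2 FABP7 genes, S100B, her4.1, 2 SLC1A2 genes, 2 SLC1A3 genes and 2 GLUL genes. Which ID of a pair is the a or the b copy, and which SLC1A2 and SLC1A3 ID is the listed one, was not settled, and the members of a pair are called here the higher-count and the lower-count gene. No ID carried the name her6. The ID named HES1 (ENSDARG00000006514), the human-style name of a repressor of that family, may be the listed her6, but the name tables do not pair them, so HES1 is described beside the members and not counted among them.

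Whole brains of adult fish of the AB laboratory line gave 48 RNA libraries, sequenced as read pairs. Founders (F0) were exposed in early life to the pyrethroid insecticide permethrin (10 µg/L), and their F1 and F2 descendants were not exposed. Each of the 12 groups is a generation, a sex and an arm, with 4 libraries each: F0 females and males of the arm labelled PH, read here as the permethrin lineage, and of the arm labelled SCA, read here as its control, and the same 4 groups in F1 and in F2. The labels do not spell out either code and give no exposure to F1 or F2 fish. Whether the 4 libraries of a group had different parents or tanks is not stated, and p-values describe only how these samples spread.

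In the adult zebrafish brain, radial glia line the ventricles, keep their long processes into adulthood, serve as neural stem cells and take on tasks that astrocytes carry out in mammals. GFAP forms their intermediate filaments, FABP7 carries fatty acids in radial glia, and S100B is a calcium-binding protein of astroglia. her4.1 is a Hairy/E(spl)-type repressor that Notch signalling switches on in neural progenitors. SLC1A2 and SLC1A3 are the glial transporters that clear glutamate from synapses, and GLUL is glutamine synthetase, which turns that glutamate into glutamine for return to neurons.

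Each library held 7655597 to 8072588 read pairs counted in genes in F0, 4802827 to 10032850 in F1 and 7381621 to 7680352 in F2. The share of read pairs in genes was 32.12 to 34% in F0, 34.76 to 36.64% in F1 and 31.35 to 32.7% in F2, so F1 stood above the others. All 23 neuronal marker genes tested passed the filter on low counts in each generation, with a summed level of 13600 to 20480 CPM (counts scaled by library size) per library, so the libraries carry the labelled tissue. In 3 libraries, markers of eye or muscle summed to more than 10 times the median of all libraries: F0_F_SCA 18 and F0_M_SCA 6 for eye, and F2_F_SCA 8 for muscle. The sequencing lane named with the files was lane 4 for F0 females and F0 PH males and lane 2 for F0 SCA males, so lane and arm cannot be told apart in F0 males. Lane and sex cannot be told apart in the SCA arm of F0, which is part of the comparison of the sexes over both arms. In F2, PH females 3 and 4 were on lane 2 and the other libraries on lane 3. No lane is given for F1, and generation and sequencing run cannot be told apart.

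Each member kept its own range of levels over the 12 groups. Levels are CPM with a scaling over all 48 libraries, and since they are not divided by transcript length, no level is compared between genes. GFAP ranged from 20.9 to 82.6 CPM over the 48 libraries with a median of 38.1. The higher-count FABP7 gene (ENSDARG00000007697) ranged from 416 to 785 CPM, a 1.89-fold range, and the lower-count FABP7 gene (ENSDARG00000034650) from 0.637 to 8.70 CPM on 5 to 72 counts. S100B ranged from 464 to 1206 CPM and her4.1 from 12.6 to 82.6 CPM. The transport genes were the higher-count SLC1A2 gene (ENSDARG00000102453), at 1190 to 2837 CPM, and the higher-count SLC1A3 gene (ENSDARG00000043148), whose 16-fold range from 3.94 to 63.1 CPM was the widest among members above 0 in every library. The lower-count SLC1A3 gene (ENSDARG00000104431) ranged from 4.31 to 15 CPM. The higher-count GLUL gene (ENSDARG00000099776) ranged 1.83-fold, from 844 to 1540 CPM, and the lower-count GLUL gene (ENSDARG00000100003) 4.17-fold, from 74.8 to 311 CPM.

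Copies of one gene were unequal in their reads. Of the reads of both FABP7 genes, the higher-count gene held 99.39% over all libraries, with 98.19 to 99.87% in single libraries. The higher-count SLC1A2 gene held 99.97% and the higher-count GLUL gene 87.11%, the latter between 78.85 and 94.56%. The share of the higher-count SLC1A3 gene moved most, from 32.84 to 87.98% of the reads of its pair. Reads that fit both copies are not in these counts, and neither the strand setting nor the annotation release is given in the sources used here, so the shares of near-identical stretches are uncertain. her4.1 has neighbouring copies (her4.2 to her4.5) of closely related sequence and its counts are uncertain for the same reason.

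**Figure D1:**
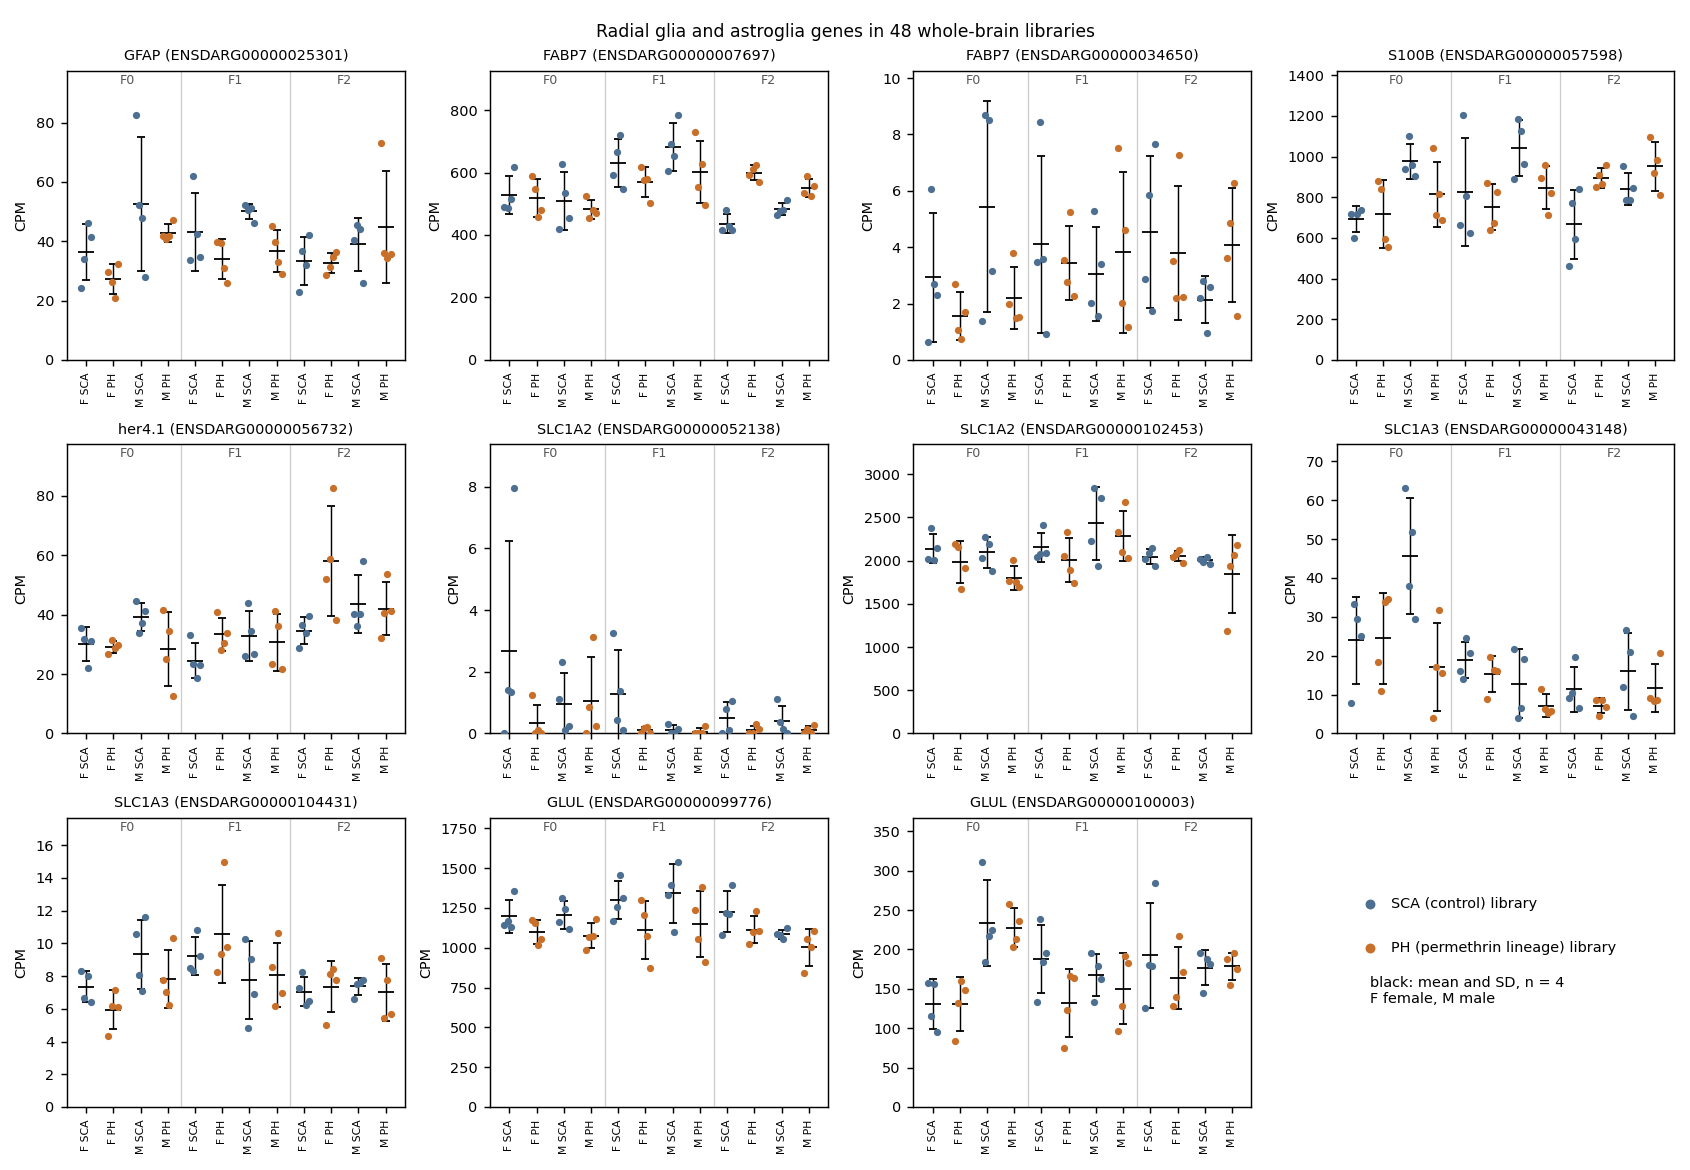
Level of each of the 11 member genes in CPM (counts scaled by library size, vertical axis from 0) in 12 groups of 4 libraries, with 1 point per library, SCA in blue, PH in orange, and black bars for the mean and SD. The higher-count FABP7 gene in F2 shows all 8 orange points (523.8 to 623.3 CPM) above all 8 blue points (416.2 to 511.7 CPM), and the lower-count GLUL gene shows all 8 F0 males above all 8 F0 females.

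In order of group means, neighbours mostly lay within their spread. For the higher-count FABP7 gene the order ran from F2_F_SCA at 436 ± 30.7 CPM to F1_M_SCA at 683 ± 76.8 CPM (mean ± SD, n = 4 each), and of the 11 neighbouring pairs only the lowest, F2_F_SCA and F0_M_PH, lay further apart than the larger SD. For GFAP the lowest group, F0_F_PH at 27.3 ± 4.91 CPM, lay apart in that way from the next, and the highest was F0_M_SCA at 52.6 ± 22.6 CPM. For the higher-count SLC1A3 gene the highest group, F0_M_SCA at 45.6 ± 14.9 CPM, lay apart from F0_F_PH at 24.5 ± 11.8 CPM. For the other 8 members, 0 of 11 neighbouring pairs were that far apart.

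The comparison of the permethrin lineage with control asks whether these genes differed in exposed founders and in unexposed descendants. The higher-count FABP7 gene was the 1 member that passed the test, and it did so in F2, not in the exposed founders. The test was edgeR's quasi-likelihood test on the 16 libraries of a generation, and called means a p under 0.05 after Benjamini-Hochberg adjustment over all genes tested. All 11 members passed the filter on low counts in F0, and 10 did in F1 and F2, where the lower-count SLC1A2 gene did not. Because brains were sequenced whole, fewer cells of a type and less RNA per cell cannot be told apart in any of these results.

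The higher-count FABP7 gene was higher in PH than in SCA in F2 females and over both sexes of F2. Its lowest mean among the 12 groups was that of F2 SCA females, and that of F2 PH females was at rank 9 from the lowest. In F2 PH females 3, 4, 5 and 16 its level was 592, 611.9, 623.3 and 569.8 CPM, and in F2 SCA females 4, 6, 8 and 9 it was 416.2, 480.9, 427.9 and 417 CPM. In F2 PH males it was 523.8 to 587.3 CPM and in F2 SCA males 465 to 511.7 CPM. The arms did not overlap in either sex, and all 8 PH libraries lay above all 8 SCA libraries. Such a separation of the arms, in either direction, was found for 0.308% of the 17505 genes tested.

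In F2 females the means were 599 ± 23.5 against 436 ± 30.7 CPM (SD, n = 4 each), a log2 change of 0.44 ± 0.07 (SE; adjusted p = 0.0241 in edgeR). This gene was the 1 called of 10 members, where 0.137% of all genes were called. Its estimate was 1 of 4 above 0, against 6 below 0. Over both sexes the log2 change was 0.31 ± 0.05 (adjusted p = 0.0105 in edgeR), again 1 of 10 members, where 1.1% of all genes were called. In F2 males it was 0.18 ± 0.07 and was not called (adjusted p = 0.472 in edgeR). There 0 of 10 members and 0.0171% of all genes (3 genes) were called. In that comparison 1542 genes (8.81%) and 1 of the 10 members had an unadjusted p under 0.05 in edgeR. Such a p was found for 3651 genes (20.86%) and 3 of the 10 members in F2 females. Over both sexes of F2 it was found for 4149 genes (23.7%) and 4 of the 10 members. The difference between the sexes in the log2 change of the higher-count FABP7 gene, 0.26 ± 0.10, did not pass either (adjusted p = 0.83 in edgeR, 0 of 10 members, 0.0114% of all genes).

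The call in F2 females did not hold when 1 of 5 libraries was left out: the edgeR adjusted p was 0.0819 without F2_F_PH 3, 0.0803 without F2_F_PH 4, 0.0622 without F2_F_PH 5, 0.0945 without F2_F_SCA 4 and 0.0756 without F2_F_SCA 8, the library with muscle transcripts, at log2 changes of 0.42 to 0.44. Without the PH females of lane 2 the log2 change was 0.43 in females (adjusted p = 0.286 in edgeR) and 0.30 over both sexes (adjusted p = 0.0625 in edgeR), while leaving out any 1 library kept the call over both sexes, with an adjusted p of at most 0.0316. Muscle markers had lower means in PH for 13 of 13 genes over both sexes of F2, with 0 called and a median log2 of -1.71. Their summed level was 112.2 to 127.2 CPM in F2 PH females and 133.7 to 1604 CPM in F2 SCA females, highest in library 8. Within the list, 1 RYR1 gene (ENSDARG00000023797) had a median of 104.4 CPM over all libraries, and the next highest median was 7.88 CPM (MYL1). Outside library 8 the sum thus rests mostly on that RYR1 gene. Over both sexes of F2, 17 of 23 neuronal genes were above 0 with 0 called, and 1 of 17 endothelial and mural genes rose. Of 14 microglial genes 11 were above 0 with 0 called, and the summed level of the list was 549 ± 61.9 CPM in PH against 480.1 ± 103 CPM in SCA females and 550.9 ± 45.2 against 473.9 ± 41.7 CPM in males. All 6 ependymal genes were above 0 and 14 of 16 eye genes below 0, with 0 called in both lists. Summed cerebellar markers were at 3625 ± 624 CPM in F2 PH females and 3011 ± 938 CPM in F2 SCA females. In F2 males they were at 4523 ± 1293 CPM in PH and 3471 ± 474 CPM in SCA. Mean erythrocyte sums were 215.2 against 157.6 CPM in females and 305.8 against 268.6 CPM in males. Oligodendrocyte and telencephalic sums had higher means in PH females and lower means in PH males. The part of these cell types and brain regions in the FABP7 result was not tested.

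The same gene did not separate the arms in earlier generations. In F0 the SCA libraries ran from 418.2 to 626.8 CPM and the PH libraries from 453.5 to 589.7 CPM. In F1 the SCA libraries ran from 547 to 784.9 CPM and the PH libraries from 496.9 to 728.2 CPM. Its log2 change between the arms was -0.07 ± 0.09 over both sexes of F0 and -0.17 ± 0.09 over both sexes of F1, so the sign differed from that in F2. The test of whether the arms differ unequally between generations was not passed by this gene in females (adjusted p = 0.140 in edgeR, where 0.178% of all genes were called) or in males (adjusted p = 0.555 in edgeR, where 0.21% were called), with 0 of 11 members called in both.

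The lower-count FABP7 gene varied with its copy within groups (r = 0.557 with group means subtracted). This lower-count gene, at 5 to 72 counts over all libraries, did not separate the arms in F2. Its mean was 3.79 ± 2.38 CPM in F2 PH females and 4.54 ± 2.71 CPM in F2 SCA females, and the groups overlapped. In F2 males the means were 4.08 ± 2.01 and 2.14 ± 0.824 CPM, also overlapping, at 7 to 43 counts. In F0 its means were lower in PH in both sexes, with a log2 change of -1.12 ± 0.45 over both sexes that was not called (adjusted p = 0.577 in edgeR).

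**Figure D2:**
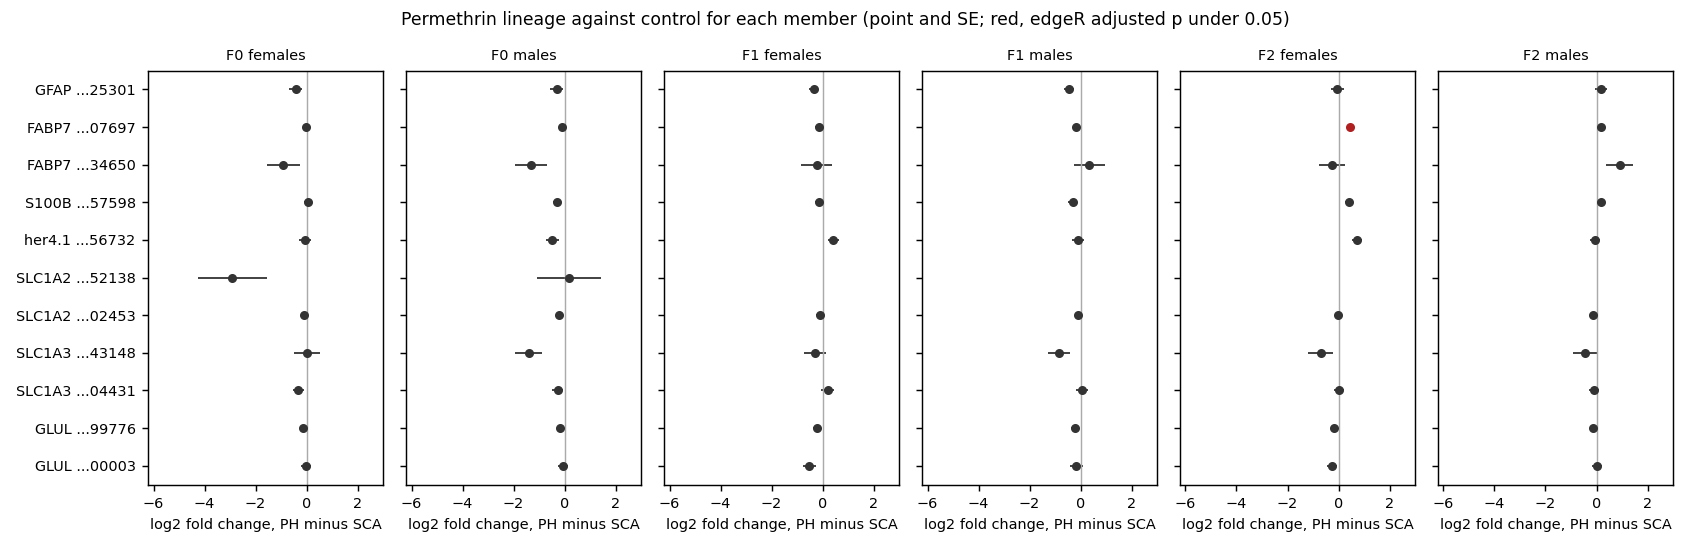
Log2 fold change of each member between the permethrin lineage (PH) and control (SCA), in 6 panels for females and males of each generation, with points for the estimate, lines for its SE and red for an adjusted p under 0.05. The 1 red point is the higher-count FABP7 gene in F2 females at 0.44, and the lower-count SLC1A2 gene has no point in F1 and F2, where it did not pass the filter on low counts.

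S100B and her4.1 stood higher in F2 PH females without being called. S100B was at 852.5, 907.9, 863.6 and 960.4 CPM in F2 PH females and at 463.7, 770.4, 594.6 and 840.3 CPM in F2 SCA females. All 4 PH values lay above all 4 SCA values. In F2 females 2 of 10 members (S100B and the higher-count FABP7 gene) had arms without overlap, against 9.17% of all genes in either direction. The log2 change of S100B was 0.40 ± 0.14 (adjusted p = 0.150 in edgeR), and the call appeared only without F2_F_SCA 9 (adjusted p = 0.0448 in edgeR).

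her4.1 was at 52.13, 58.79, 82.59 and 38.3 CPM in F2 PH females and at 28.95, 36.43, 33.69 and 39.43 CPM in F2 SCA females. The groups overlapped through F2_F_PH 16, and the highest value was in F2_F_PH 5. The log2 change was 0.72 ± 0.21 (adjusted p = 0.132 in edgeR), while DESeq2 gave an adjusted p of 0.0468. In F2 males her4.1 was at 42.0 ± 8.92 CPM in PH and 43.7 ± 9.72 CPM in SCA, a log2 change of -0.06 ± 0.21. In F2 males, 1 of 10 members (the higher-count FABP7 gene) had arms without overlap, against 4.64% of all genes.

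In exposed founders, 0 of 11 members were called in females, in males, or over both sexes, and 0% of all genes were called in each of these comparisons. By unadjusted p under 0.05 in edgeR, 921 of 18081 genes passed in females (5.09%), 1096 in males (6.06%) and 1348 over both sexes (7.46%). Of the 11 members 1, 4 and 3 did. In F0 males lane and arm cannot be told apart. DESeq2 also called 0 members in these comparisons. Over both sexes of F0 the estimate was below 0 for 11 of 11 members, with a median log2 of -0.27 against -0.01 over all genes. Among them the lower-count SLC1A2 gene was at 0.339 ± 0.598 CPM in PH and 2.67 ± 3.58 CPM in SCA females. In F0 males its means were 1.06 and 0.955 CPM. Mean sums of eye genes were 85.8 CPM in PH and 1022 CPM in SCA females, and 168.4 and 221.6 CPM in males. Their part in this gene's estimate was not tested. Members with arms that did not overlap numbered 0 of 11 in F0 females, where 3.53% of all genes had such arms, and 0 of 11 in F0 males, where 3.55% had. The difference between the sexes of F0 was passed by 0 of 11 members and by 0% of all genes.

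Among the glutamate genes of F0 males, the higher-count SLC1A3 gene was at 3.943, 17.19, 31.65 and 15.6 CPM in PH males 12, 17, 19 and 22, and at 63.06, 37.97, 51.86 and 29.34 CPM in SCA males 2, 6, 10 and 17. The arms overlapped through PH male 19 and SCA male 17. The log2 change was -1.41 ± 0.53 (adjusted p = 0.784 in edgeR), and the gene varied widely between libraries of a group, with a coefficient of variation of 51.2% in F0 against 21.1% for genes of its abundance. In F0 females the 2 arms were at 24.5 ± 11.8 and 23.9 ± 11.2 CPM. For the higher-count SLC1A2 gene the means in F0 males were 1802 ± 141 CPM in PH and 2094 ± 175 CPM in SCA, a log2 change of -0.23 ± 0.09 (adjusted p = 0.791 in edgeR). For the higher-count GLUL gene they were 1077 ± 77.8 and 1208 ± 87.8 CPM, a log2 change of -0.18 ± 0.08 (adjusted p = 0.794 in edgeR).

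In F1, 0 of 10 members were called in females (0.0663% of all genes), in males (0.105%), over both sexes (0.68%) or for the difference between the sexes (0% of all genes, with 924 at an unadjusted p under 0.05). DESeq2 also called 0 members in these comparisons. GFAP in F1 males was at 45.13, 39.58, 33.12 and 28.99 CPM in PH libraries 4, 6, 7 and 8, and at 52.25, 50.45, 51.22 and 46.21 CPM in SCA libraries 5, 14, 10 and 12. All 4 PH values lay below all 4 SCA values. In F1 males 1 of 10 members had arms without overlap, against 4.43% of all genes in either direction. The GFAP means were 36.7 ± 7.11 and 50.0 ± 2.65 CPM, with a log2 change of -0.45 ± 0.19 that was not called (adjusted p = 0.477 in edgeR). In F1 females GFAP was at 34.1 ± 6.82 CPM in PH and 43.2 ± 13.2 CPM in SCA with overlapping arms, and 0 of 10 members had arms without overlap there, against 5.54% of all genes. In F0 the GFAP means were also lower in PH, at 27.3 ± 4.91 against 36.4 ± 9.55 CPM in females and 42.9 ± 3.01 against 52.6 ± 22.6 CPM in males, with overlapping arms in both sexes. In F2 males the GFAP mean was higher in PH, 44.8 ± 18.9 against 38.9 ± 9.03 CPM, through 1 library at 73.2 CPM.

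Few other genes of the same pathways were called between the arms. Of 34 other radial glia and neural stem cell genes tested, 0 were called in F0 and F2, and 1 rose over both sexes of F1; the share of all genes called over both sexes was 0% in F0, 0.68% in F1 and 1.1% in F2. This was SOX9 (ENSDARG00000043923), a transcription factor of radial glia, at 28.2 ± 4.54 CPM in PH against 15.5 ± 0.687 CPM in SCA females and 33.6 ± 6.13 against 25.4 ± 7.24 CPM in males (log2 0.63 ± 0.13, adjusted p = 0.0292 in edgeR). Of the genes of the glutamate and glutamine cycle, 1 of 25 fell in F1 males, where 0.105% of all genes were called, and over both sexes of F1. This was SLC38A3 (ENSDARG00000091061), a glutamine transporter, at 2.32 ± 0.518 CPM in PH against 8.06 ± 1.83 CPM in SCA males (log2 -1.79 ± 0.28, adjusted p = 0.0273 in edgeR). It is the lower-count SLC38A3 gene, with a median of 6.45 CPM over all libraries. The higher-count SLC38A3 gene (ENSDARG00000027065), with a median of 276 CPM, was not called between the arms of F1. Of 31 to 33 other astrocyte-type genes and 39 to 42 Notch pathway genes tested in each generation, 0 were called between the arms. List names were matched to symbols without regard to letter case. The listed dld of the Notch list took the ID named DLD (ENSDARG00000008785), and whether that ID is the listed gene was not settled. In the radial glia list cyp19a1b took the ID named CYP19A1 (ENSDARG00000041348), at 0 to 1.02 CPM. Which copy that ID is was not settled.

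Those of smallest p in F2 and F0 were not called. ID1, an inhibitor of differentiation in neural stem cells, was at 70.7 ± 9.38 CPM in F2 PH females and 46.3 ± 9.72 CPM in F2 SCA females, with a log2 change over both sexes of 0.47 ± 0.11 (adjusted p = 0.0553 in edgeR). nes, which encodes the progenitor filament nestin, had a log2 change of 0.41 ± 0.12 over both sexes of F2 (adjusted p = 0.0855 in edgeR), and jag1a, a Notch ligand, one of 0.60 ± 0.15 (adjusted p = 0.0712 in edgeR). Others of smallest p in F2 had estimates below 0, with larger log2 changes: SLC16A9 (ENSDARG00000013926) at -0.73 ± 0.19 (adjusted p = 0.0746 in edgeR), RBPJ (ENSDARG00000052091), the DNA-binding factor of Notch signalling, at -1.12 ± 0.32 (adjusted p = 0.0867 in edgeR) and SLC17A7 (ENSDARG00000090106), a vesicular glutamate transporter of neurons, at -1.43 ± 0.45 (adjusted p = 0.106 in edgeR). These RBPJ and SLC17A7 genes are the lower-count IDs of their symbols, with medians of 2.29 and 1.41 CPM over all libraries. The other RBPJ and SLC17A7 IDs had medians of 15.4 and 52.0 CPM. On the log2 scale SLC1A1 and S1PR1, also of smallest p in F2, were both at 0.20. In F0 over both sexes the smallest p was that of SLC16A9 (ENSDARG00000104687), at -0.90 ± 0.20 on the log2 scale (adjusted p = 0.245 in edgeR). VIM, the filament gene vimentin, was at -0.47 ± 0.11 on the log2 scale (adjusted p = 0.291 in edgeR), her4.4, a neighbour copy of her4.1, at -0.52 ± 0.16 (adjusted p = 0.474 in edgeR) and her2 at -0.81 ± 0.28 (adjusted p = 0.490 in edgeR).

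Between the sexes, the lower-count GLUL gene was lower in females than in males of F0 and did not separate the sexes in F1 or F2. In F0 PH females 10, 9, 15 and 16 its level was 83.3, 131.9, 159.9 and 148.5 CPM, and in F0 SCA females 14, 15, 16 and 18 it was 157.2, 114.9, 156.4 and 94.6 CPM. In F0 PH males 12, 17, 19 and 22 it was 257.8, 203.4, 213.1 and 236.6 CPM, and in F0 SCA males 2, 6, 10 and 17 it was 311.3, 183.9, 216.5 and 224.3 CPM. All 8 males (183.9 to 311.3 CPM) lay above all 8 females (83.3 to 159.9 CPM). Such a separation of the sexes, in either direction, was found for 1 of 11 members and 1.29% of all genes.

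The means were 131 ± 30.1 CPM in F0 females and 231 ± 39.2 CPM in F0 males (SD, n = 8 each), a log2 change of -0.80 ± 0.14 (adjusted p = 0.00553 in edgeR), which held under all 22 alternatives. It was the 1 of 11 members called, where 4.85% of all genes were called. Within the PH arm, whose F0 females and males were all on lane 4, the log2 change was -0.78 ± 0.20 and was not called (adjusted p = 0.169 in edgeR, 0 of 11 members, 0.0719% of all genes). Within the SCA arm it was -0.82 ± 0.20 (adjusted p = 0.0586 in edgeR, 0 of 11 members, 1.4% of all genes). DESeq2 called the gene within each arm, with adjusted p of 0.0177 and 0.00602.

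In F1 the same gene was at 160 ± 50.0 CPM in females and 159 ± 35.5 CPM in males, and in F2 at 178 ± 52.9 and 178 ± 18.7 CPM, with log2 changes of 0.01 ± 0.18 and 0.00 ± 0.14. The test of whether the sex difference was unequal between generations gave an unadjusted p of 0.00136 and was not passed (adjusted p = 0.113 in edgeR, 0 of 11 members, 0.105% of all genes), while DESeq2 gave an adjusted p of 0.0313. The higher-count GLUL gene was at 1149 ± 99.3 CPM in F0 females and 1143 ± 104 CPM in F0 males (log2 0.03 ± 0.06). GFAP was at 31.9 ± 8.56 CPM in F0 females and 47.8 ± 15.8 CPM in F0 males with overlap (log2 -0.57 ± 0.18, adjusted p = 0.0888 in edgeR), while DESeq2 gave an adjusted p of 0.0287 and edgeR without F0_M_SCA 17 one of 0.0167. S100B had a log2 change of -0.31 ± 0.11 between the sexes of F0 (adjusted p = 0.123 in edgeR). In F1, 0 of 10 members were called between the sexes (3.45% of all genes), with S100B called only without F1_F_SCA 6 (adjusted p = 0.0315 in edgeR), and DESeq2 called 0. In F2, 0 of 10 members were called (0.114% of all genes, and 1595 at an unadjusted p under 0.05), and DESeq2 called 0.

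**Figure D3:**
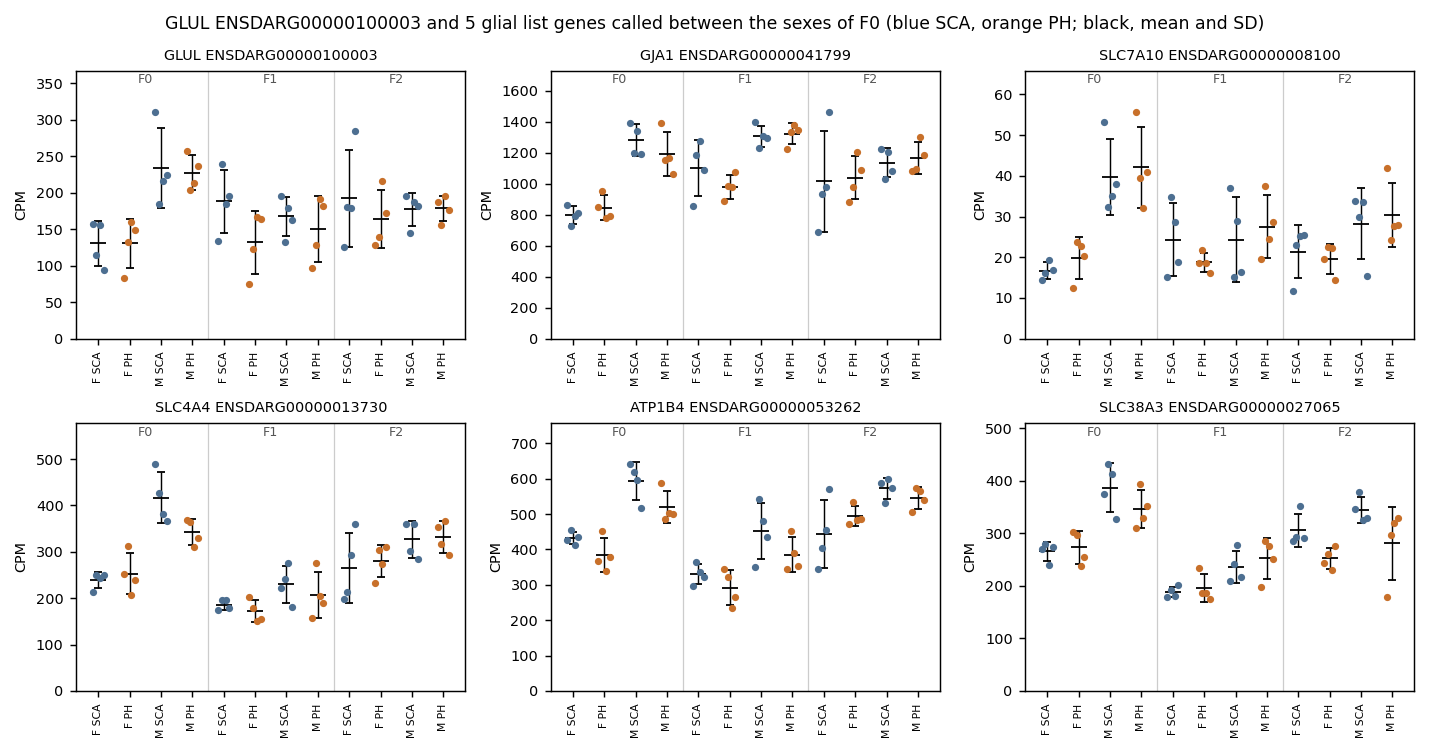
Level in CPM (counts scaled by library size, vertical axis from 0) of the lower-count GLUL gene and of 5 pathway genes called between the sexes of F0, by group, with 1 point per library, SCA in blue, PH in orange, and black bars for the mean and SD of 4 libraries. In F0 all 8 males lie above all 8 females in each panel except SLC4A4, whose highest female (312.9 CPM) passes the lowest male (309.6 CPM). The 5 pathway genes were picked among called genes of smallest p in this same comparison, so their separation follows from that choice. Of all genes tested, 1.29% separated the sexes of F0 in either direction. The lower-count GLUL gene does not separate the sexes in F1 or F2.

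Other glial genes were lower in F0 females as well. Of 33 other astrocyte-type genes tested, 11 fell in females relative to males and 0 rose, where 4.85% of all genes were called (364 higher and 513 lower in females), with a median log2 over the list of -0.20 against 0.01 over all genes. GJA1, the astroglial gap junction protein connexin 43, was at 822 ± 68.8 CPM in F0 females and 1236 ± 123 CPM in F0 males (log2 -0.57 ± 0.06, adjusted p = 0.000329 in edgeR). SLC7A10, an amino acid exchanger of astroglia in mammals, was at 18.2 ± 3.98 and 40.9 ± 9.02 CPM (log2 -1.15 ± 0.15, adjusted p = 0.000651 in edgeR). SLC4A4 (ENSDARG00000013730), a sodium bicarbonate cotransporter, and ATP1B4 fell as well, at log2 changes of -0.60 ± 0.08 and -0.42 ± 0.06 (adjusted p = 0.000941 and 0.00164 in edgeR). Within the SCA arm of F0, where lane and sex cannot be told apart, GJA1 was at -0.66 ± 0.09 on the log2 scale (adjusted p = 0.0041 in edgeR). SLC7A10 was at -1.23 ± 0.21 there (adjusted p = 0.0104 in edgeR), where 1.4% of all genes were called. Within the PH arm, with both sexes on lane 4, no gene of the pathway lists was called, against 0.0719% of all genes.

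Of 24 genes of the glutamate and glutamine cycle, 6 fell in F0 females and 0 rose, against the same 4.85% of all genes, among them SLC38A3 (ENSDARG00000027065), at 269 ± 24.3 against 366 ± 44.2 CPM (log2 -0.42 ± 0.07, adjusted p = 0.00426 in edgeR). Of 34 radial glia and neural stem cell genes, 3 fell and 0 rose, and of 41 Notch pathway genes 0 were called. HES1, the possible her6, was at 31.94 ± 5.33 CPM in F0 females and 43.93 ± 3.53 CPM in F0 males, and fell in females by 0.44 ± 0.09 on the log2 scale (adjusted p = 0.0116 in edgeR). HES1 means in females and males were 45.04 ± 5.22 and 52.74 ± 5.13 CPM in F1, and 33.02 ± 6.05 and 37.44 ± 5.5 CPM in F2, with overlap. In F1, where 3.45% of all genes were called, 4 of 32 astrocyte-type genes fell in females, GJA1 at log2 -0.33 ± 0.07 (adjusted p = 0.0274 in edgeR) and ATP1B4 at -0.41 ± 0.10 (adjusted p = 0.0300 in edgeR) among them, and in F2 0 of 31 were called.

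Oligodendrocyte and blood genes moved with the sex difference of F0. Of 15 oligodendrocyte and myelin genes 8 fell in females and 0 rose, against 4.85% of all genes called, with a summed level of 7341 to 12130 CPM over the 8 F0 females and 10040 to 23100 CPM over the 8 F0 males. Of 7 erythrocyte genes 2 fell, with a summed level of 115.7 to 252.3 CPM in females and 183.9 to 373.9 CPM in males, and of 18 endothelial and mural genes 1 fell. Of 23 neuronal genes 3 rose and 2 fell. Of 14 microglial genes 0 were called and 11 were below 0, with a summed level of 416.6 ± 31.0 CPM in PH and 439.2 ± 60.8 CPM in SCA females against 507.7 ± 62.3 and 500 ± 46.4 CPM in males. The part of these cell types in the GLUL result was not tested.

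Between generations, 5 members were called in at least 1 comparison of an arm, and so were many genes of the whole table. The higher-count FABP7 gene rose from F0 to F1, from 509 ± 60.6 CPM over the 16 F0 libraries to 621 ± 81.9 CPM over the 16 F1 libraries. Its log2 change was 0.34 ± 0.08 in SCA fish (adjusted p = 0.000426 in edgeR) and 0.23 ± 0.08 in PH fish (adjusted p = 0.0138 in edgeR). From F1 to F2 it fell by 0.52 ± 0.08 on the log2 scale in SCA fish (adjusted p = 1.07e-06 in edgeR), while in PH fish the estimate was -0.03 ± 0.08 and was not called. From F0 to F2 it was called in PH fish at 0.20 ± 0.08 (adjusted p = 0.0407 in edgeR), a call kept by 14 of 53 alternatives, 12 of them among the 48 fits that left out 1 library, with an adjusted p of up to 0.130 (without F0_F_PH 15).

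her4.1 rose in F2. Its level was 31.7 ± 7.96 CPM over the F0 libraries, 30.4 ± 7.68 CPM over F1 and 44.6 ± 13.5 CPM over F2 (SD, n = 16 each), with overlap. In PH fish its log2 change was 0.78 ± 0.17 from F0 to F2 (adjusted p = 0.000861 in edgeR) and 0.63 ± 0.17 from F1 to F2 (adjusted p = 0.00421 in edgeR). In SCA fish it was 0.45 ± 0.17 from F1 to F2 (adjusted p = 0.0448 in edgeR), and 0.18 ± 0.17 from F0 to F2 (adjusted p = 0.526 in edgeR). The call from F1 to F2 in SCA fish was kept by 42 of 53 alternatives. It was lost without F1_F_SCA 6, 7 or 8, F1_M_SCA 5 or 12, F2_F_SCA 6, 8 or 9, or F2_M_SCA 10, with an adjusted p of up to 0.100 in edgeR. The copy her4.2 took another course, from 17.97 ± 3.09 CPM in F0 to 24.2 ± 5.29 CPM in F1 and 18.3 ± 3.57 CPM in F2. HES1 was at 37.93 ± 7.58 CPM in F0, 48.89 ± 6.39 CPM in F1 and 35.23 ± 6.03 CPM in F2. By arm, its means in PH and SCA were 39.39 and 36.48 CPM in F0, 49.51 and 48.27 CPM in F1, and 37.38 and 33.09 CPM in F2.

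The higher-count SLC1A3 gene fell after F0 in both arms, from 27.8 ± 15.6 CPM in F0 to 13.5 ± 6.73 CPM in F1 and 11.6 ± 6.67 CPM in F2 (SD, n = 16 each). In SCA fish the log2 change was -1.08 ± 0.36 from F0 to F1 (adjusted p = 0.0132 in edgeR) and -1.28 ± 0.36 from F0 to F2 (adjusted p = 0.0194 in edgeR). In PH fish it was -0.96 ± 0.36 (adjusted p = 0.0279 in edgeR) and -1.16 ± 0.37 (adjusted p = 0.0148 in edgeR). The values of the generations overlapped, from 3.94 to 63.1 CPM in F0, and without F0_M_PH 19 both PH calls were lost, at adjusted p of 0.109 and 0.0567 in edgeR. With voom on all libraries both PH calls were lost too, at adjusted p of 0.106 and 0.0656. The call from F0 to F1 in PH fish was also lost without F0_F_PH 15 or 16, F1_F_PH 1, or F1_M_PH 7 or 8, and that from F0 to F2 in SCA fish without F0_F_SCA 15, F2_F_SCA 9 or F2_M_SCA 10, with an adjusted p of up to 0.0573. The lower-count SLC1A3 gene went the other way in PH fish from F0 to F1, with a log2 change of 0.44 ± 0.15 (adjusted p = 0.0170 in edgeR; 0.0669 without F1_F_PH 9 and 0.0531 without F1_M_PH 7).

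The share of members called stood against a background in which much of the table was called between generations. In SCA fish 2 of 11 members were called from F0 to F1 (43% of all genes), 1 of 11 from F0 to F2 (10.8%) and 2 of 11 from F1 to F2 (29.1%). In PH fish 4 of 11 were called from F0 to F1 (46.1%), 3 of 11 from F0 to F2 (32.3%) and 1 of 11 from F1 to F2 (32.3%). The 4 called from F0 to F1 in PH fish include the lower-count SLC1A2 gene, at 10 counts or fewer in every F0 PH library except F0_M_PH 19 with 25. Its log2 change of -2.68 ± 1.09 (adjusted p = 0.0421 in edgeR) was kept by 43 of 53 alternatives and lost without F0_F_PH 10, F0_M_PH 19, F1_F_PH 1, 2 or 10, or F1_M_PH 4, 6 or 7, with the highest adjusted p without F0_F_PH 10 (adjusted p = 0.583 in edgeR). The comparisons of generations in an arm share libraries, so they are given side by side.

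In the other pathway lists, SOX2, a stem cell transcription factor, fell from F0 to F1 in SCA fish by 0.69 ± 0.07 on the log2 scale (adjusted p = 1.23e-09 in edgeR), and 17 of 34 radial glia genes were called there, 5 upwards and 12 downwards. ID1 rose from F0 to F1 in PH fish by 0.98 ± 0.13 (adjusted p = 1.18e-07 in edgeR), where 18 of 34 were called, 9 in each direction. Of the astrocyte-type genes, 21 of 33 were called from F0 to F1 in SCA fish, 9 upwards and 12 downwards, and of the Notch pathway genes 21 of 42, 8 upwards and 13 downwards. These counts stand beside the 43% of all genes called in that comparison.

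The lower-count SLC1A2 gene (ENSDARG00000052138) followed eye transcripts. It was at 0 to 7.95 CPM on 0 to 62 counts, and its highest value was in F0_F_SCA 18, where 27 eye and retina genes summed to 3539 CPM. The next highest were F1_F_SCA 4 at 3.24 CPM with an eye sum of 293.4 CPM, F0_M_PH 19 at 3.12 with 383 CPM and F0_M_SCA 6 at 2.33 with 629.6 CPM. Its level over the 48 libraries, on the log2 scale with generation means subtracted, was most like that of the cone photoreceptor genes PDE6C (Pearson's r = 0.908, n = 48), GNAT2 (r = 0.883) and ARR3 (r = 0.857). These libraries share their depth and dissection, and the likeness is a description. The genes named for likeness were those of highest r among 12285 compared, so a high r follows in part from that choice.

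By the same measure the lower-count GLUL gene was most like GPT, an alanine aminotransferase (r = 0.887, Spearman's rho = 0.842), oaz2b (r = 0.833) and UCP2 (r = 0.828). The higher-count SLC1A3 gene was most like NFIX, a nuclear factor I transcription factor (r = 0.842), and DLGAP4 (r = 0.83) was also among the 3 genes of highest r. Summed cerebellar markers ranged from 1651 to 6311 CPM and their part in this gene's level was not tested. NEFL, a neurofilament gene, was among the 3 genes most like GFAP (r = 0.69). S100B was most like SDHD (r = 0.763), her4.1 most like PPA2 (r = 0.717) and the higher-count SLC1A2 gene most like robo4, for which r of 0.729 dropped to 0.520 without the 2 libraries farthest from the median. The lower-count FABP7 gene was most like cndp1 (r = 0.745). The highest r was lower for the higher-count FABP7 gene (GSTM3, 0.621), the higher-count GLUL gene (zgc:171679, 0.579) and the lower-count SLC1A3 gene (MYH9, 0.548).

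**Figure D4:**
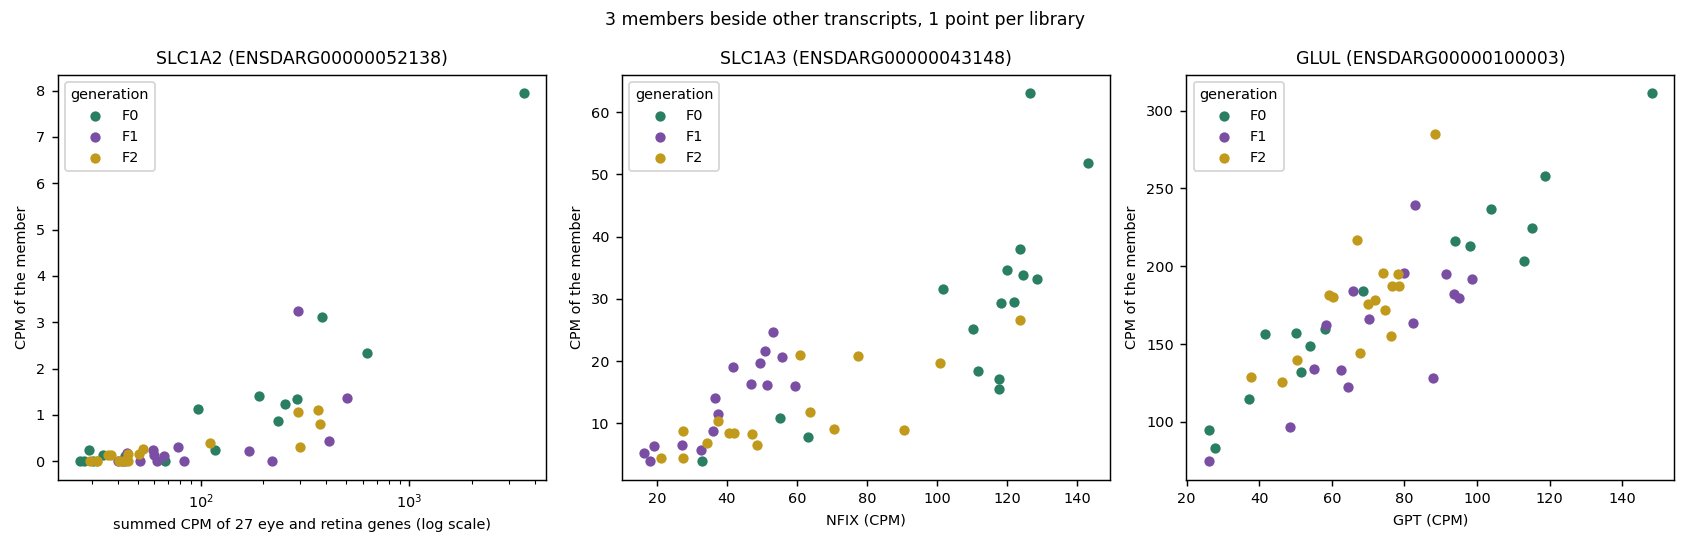
Level of 3 members in CPM (counts scaled by library size, vertical axes) in the 48 libraries, coloured by generation, beside the summed level of 27 eye and retina genes (log axis) for the lower-count SLC1A2 gene, NFIX for the higher-count SLC1A3 gene and GPT for the lower-count GLUL gene. The lower-count SLC1A2 gene is highest (7.95 CPM) in the library with the highest eye sum (3539 CPM). NFIX and GPT were picked as the genes of highest r with their members among 12285 compared, so their rise together follows from that choice.

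Within groups, members did not vary as 1 block. With group means subtracted, the higher-count SLC1A2 and GLUL genes had r = 0.683 over the 48 libraries, the higher-count FABP7 and GLUL genes r = 0.617, and the 2 FABP7 genes r = 0.557. The lower-count SLC1A3 and GLUL genes had r = 0.491. The lowest values were -0.479 for S100B and the higher-count SLC1A3 gene, -0.453 for the higher-count FABP7 gene and the lower-count GLUL gene, and -0.423 for her4.1 and the higher-count SLC1A3 gene. The 2 GLUL genes had r = -0.188 and the 2 SLC1A3 genes r = 0.0346. The points share library depth and scaling. In 1 library, F2_M_PH 11, GFAP was high at 73.2 CPM while the higher-count SLC1A2 and GLUL genes had their lowest values, 1190 and 844 CPM, and cerebellar markers their highest sum.

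**Figure D5:**
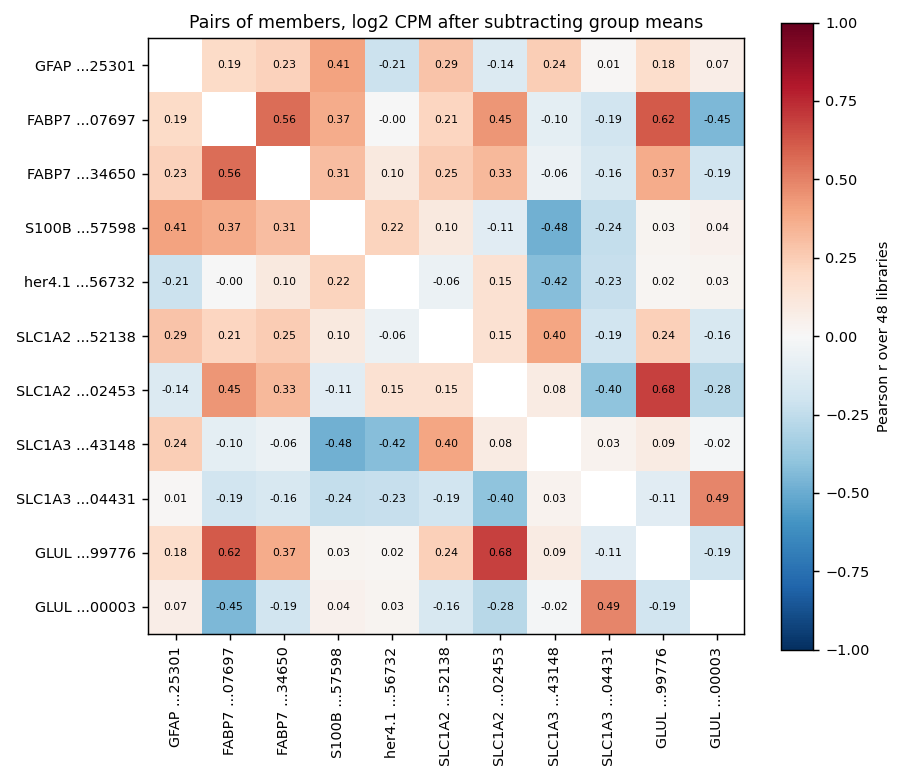
Pearson's r between each pair of members over the 48 libraries, on the log2 CPM scale after subtracting group means, from blue (-1) to red (1). The strongest positive pair is the higher-count SLC1A2 and GLUL genes (0.683) and the strongest negative pair is S100B and the higher-count SLC1A3 gene (-0.479).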

How the data were processed

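Per the labels' protocols, a BGISEQ-500 read RNA of 48 whole brains from both ends. STAR 2.7, HTSeq 0.11.2 and DESeq2 1.24.0 and the build GRCz11 (danRer11) are named in the submitters' processing notes. The authors deposited raw read counts per Ensembl gene, 1 table per library. Summary lines that name no gene were left out. Of all read pairs, 31.4 to 36.6% were in genes, 60.3 to 65.4% over no annotated feature, 2.4 to 3.12% not unique and 0.306 to 0.602% ambiguous.

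Group means were fitted in edgeR 4.0.16 (R 4.3.3; filterByExpr, TMM, robust glmQLFit and glmQLFTest) to the 16 libraries of each generation (18081, 18094 and 17505 genes) and to all 48 (19062 genes), the latter for comparisons of generations. p-values were adjusted over all genes (Benjamini-Hochberg, 0.05). SE came from the F statistic. The code was tested on simulated data. Replicates were compared first: chi-square per degree of freedom was at least 4.44 between them, so none was a duplicate. Alternatives were DESeq2 1.42.0, voom in limma 3.58.1, other scaling, no filter, libraries left out and the joint fit; the rule on libraries that stood apart, F0 sex contrasts within an arm and the test of sex differences between generations were added after seeing the data. Members and lists were chosen with earlier results of these data known. Named list genes were called genes, up to 6 per comparison by smallest p, or where none was called those of smallest p. Likeness took the 3 named genes of highest r among 12285 genes at a mean of at least 5 CPM (prior count 2). HES1, her4.2 to her4.5 and the libraries singled out were chosen after values were seen. Levels are mean ± SD. Values of some genes that the naming rule took are not reported here.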

Additional observations from a re-analysis of the deposited data

Results flagged for a closer look

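In 132 groups of 4 libraries (11 members in 12 groups), 6 held a library far from the other 3 by Dixon's test, where chance gives about 1 in 20 groups. GFAP was at 73.23 CPM in F2_M_PH 11 and at 34.5 to 35.89 CPM in the other 3. The higher-count SLC1A3 gene was at 20.78 CPM in F2_M_PH 9, against 8.383 to 9.134 CPM. S100B was at 598.7 CPM in F0_F_SCA 15, against 716.8 to 737.6 CPM, and the higher-count SLC1A2 gene at 2408 CPM in F1_F_SCA 7, against 2046 to 2085 CPM. The lower-count SLC1A2 gene was at 1.232 CPM in F0_F_PH 10, against 0 to 0.1237 CPM, and at 0.2328 CPM in F1_M_PH 8, on 2 counts, against 0 in the other 3.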

How the results depend on the processing

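No direction of a called value reversed under any alternative run. The number of members called became 2 with DESeq2 and 2 with all 48 libraries in 1 fit for the sexes of F0, 1 with DESeq2 for the sexes within PH fish and 1 within SCA fish of F0, 1 with DESeq2 for the sex difference between generations, and 2 with DESeq2 in F2 females. In F2 females it was 0 without the PH females of lane 2 and 0 without the libraries that stood apart, and over both sexes of F2 it was 0 without those of lane 2, fits with fewer samples. From F1 to F2 in SCA fish it was 1 with no filter and 1 without the libraries that stood apart, and from F0 to F1 in PH fish 2 with voom; the causes were not tested. Leaving out 1 library, the count ran from 1 to 2 for the sexes of F0, 0 to 1 for those of SCA fish in F0 and for those of F1, 0 to 2 in F2 females and 1 to 2 over both sexes of F2. Between generations it ran from 2 to 3 (F0 to F1), 0 to 1 (F0 to F2) and 1 to 3 (F1 to F2) in SCA fish, and from 1 to 5, 1 to 4 and 1 to 2 in PH fish. It stayed at 0 in all others. Over all genes the count in F2 females ran from 3 to 1251 and over both sexes of F2 from 78 to 1192. In F0 females, where only the numbers 15 and 16 occur in both arms, the fit with a replicate block called 0 members and 1 gene, as did the fit of those libraries without it. Same-numbered libraries had r of 0.119 and 0.12 and crossed ones 0.0115 and 0.158. So few pairs of libraries cannot show whether the numbers pair the samples. Of 132 group means, 132 stayed within 1 SD with DESeq2 size factors and 125 with scaling within each generation. At 72 counts or fewer, the lower-count FABP7 and SLC1A2 genes are limited by depth.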
